A study of Mus musculus with 6 samples.

Results

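Ddit3 and Ppp1r15a, which encode the stress effectors CHOP and GADD34, are 2 of the 1228 genes in a table of FPKM values (counts of sequenced fragments scaled to transcript length and library size) from Bv2 cells, an immortalised mouse microglial line. Both genes were taken by symbol, and both were chosen by their difference between the groups compared here, so their values in OGD/R and control are a description and carry no test. The OGD/R group holds 3 libraries of wild-type Bv2 cells that spent 30 min in nitrogen, 2 h at 1% oxygen in medium lacking glucose and serum, and then 24 h in complete medium, a culture model of ischemia and reperfusion. The control group holds 3 libraries of wild-type Bv2 cells labelled as control. A single commercial line was used, the labels do not say that replicates came from separate cultures, and the spread between replicates may therefore be technical. The protocol text also refers to an earlier infection without naming the libraries that had it, and if it differed between the groups its effect cannot be told apart from that of OGD/R. The table holds genes whose group means differ: the log2 ratio of means nearest to 0 was 1.03 among genes higher in OGD/R and -0.97 among genes lower in it.

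Steps between low FPKM values placed the libraries at 8028930 to 8661510 counted units in OGD/R and 7626940 to 8247350 in control. In each group 1 library stood apart from the other two. Over the genes of the table, the chi-square per gene was 2.23 between OGD/R replicates 1 and 2, against 10.9 and 11.6 between each of these and replicate 3. It was 2.37 between control replicates 2 and 3, against 21.9 and 20.5 between each of these and replicate 1. Results are therefore also given without OGD/R replicate 3 and control replicate 1. Of 14 microglia and macrophage markers only Cx3cr1 and P2ry12 were in the table, at 1.77 ± 0.22 and 1.25 ± 0.324 FPKM in OGD/R, and at 0.373 ± 0.15 and 0.53 ± 0.108 FPKM in control (SD, n = 3 each), so the identity of the line could be checked on few genes. Of 33 markers of other cell types 3 were in the table, and all 3 were low, as were Cx3cr1 and P2ry12. Vwf was at 1.44 ± 0.321 FPKM in OGD/R and 3.66 ± 0.645 in control. Tubb3 was at 0.19 ± 0.185 FPKM in OGD/R and 0.787 ± 0.334 in control, and Cspg4 at 0.02 ± 0.0173 FPKM in OGD/R and 0.0867 ± 0.00577 in control (SD, n = 3 each). In control, the means of Vwf and Tubb3 were above those of Cx3cr1 and P2ry12. The markers therefore do not settle the identity of the line. In bulk RNA, fewer cells that carry a transcript and less transcript per cell cannot be told apart.

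The 2 genes belong to the integrated stress response, in which kinases phosphorylate the translation initiation factor eIF2, general protein synthesis drops, and a few messages such as that of the transcription factor ATF4 are translated better. ATF4 raises transcription of Ddit3, whose product CHOP is a bZIP transcription factor that pairs with C/EBP proteins and promotes cell death under lasting stress. ATF4 and CHOP raise Ppp1r15a, whose product GADD34 brings protein phosphatase 1 to eIF2 and so reverses the translational arrest. In microglia the pathway is known from stress of the endoplasmic reticulum and from ischemic injury.

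Ddit3 lies on the plus strand of chromosome 10 of GRCm38, from 127290774 to 127296288 (ENSMUSG00000025408, GENCODE M21). Its main transcript has 4 exons and 890 nt, with 168 codons for CHOP. The annotation holds a second gene of the same symbol, ENSMUSG00000116429, from 127290829 to 127293753 on the same strand: a short reading frame of 34 codons in the leader of the same transcript, all 105 nt of whose exons lie within exons of Ddit3. The last exon of Ddit3 overlaps 68 nt of exons of Mars, which encodes methionyl-tRNA synthetase on the opposite strand, and its first exon overlaps 13 nt of the noncoding Gm4189. Neither is in the table. The sources used here do not say if counting took strand into account, so reads from overlapping stretches cannot be assigned.

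Ppp1r15a lies on the minus strand of chromosome 7, from 45522916 to 45526268 (ENSMUSG00000040435). Its main transcript has 3 exons and 2333 nt, with 657 codons for GADD34. Its exons overlap 12 nt of exons of Tulp2 on the opposite strand, and the start of Plekha4 lies 62 nt beyond its own start. Tulp2 and Plekha4 are not in the table.

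The promoters are shown because both genes had the same direction of difference, and motifs known from stress-induced genes could be looked for in them. The windows are the 250 bases before the RefSeq start of each gene on GRCm38.p6, written 5′ to 3′ on the strand of the gene, with capitals for motif matches. The window of Ddit3 is chr10:127290543-127290792 on the plus strand, and that of Ppp1r15a is chr7:45526269-45526518 on the minus strand. Because the GENCODE start of Ddit3 is 127290774, the last bases of its window lie in the first exon of the main transcript. Plekha4, on the plus strand, starts at 45526330, inside the Ppp1r15a window.
Ddit3: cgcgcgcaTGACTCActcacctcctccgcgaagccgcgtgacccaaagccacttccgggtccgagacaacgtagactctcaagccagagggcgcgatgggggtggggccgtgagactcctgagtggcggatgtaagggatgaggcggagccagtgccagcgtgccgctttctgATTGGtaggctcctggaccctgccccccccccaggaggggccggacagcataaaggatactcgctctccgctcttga
Ppp1r15a: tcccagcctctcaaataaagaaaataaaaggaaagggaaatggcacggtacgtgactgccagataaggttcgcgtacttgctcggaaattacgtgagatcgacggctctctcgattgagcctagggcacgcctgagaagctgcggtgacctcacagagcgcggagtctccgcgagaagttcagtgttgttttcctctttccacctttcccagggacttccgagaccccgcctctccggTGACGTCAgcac

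The 2 windows shared none of the motifs searched on both strands. The Ppp1r15a window held the cAMP response element TGACGTCA, a site type bound by CREB and ATF factors, at bases -12 to -5 from the start, and 1.55% of 32851 RefSeq promoter windows of the same length held it. The Ddit3 window held the AP-1 motif TGANTCA at bases -242 to -236, present in 6.75% of all windows. It also held the CCAAT box on the minus strand at bases -77 to -73. The letters CCAAT alone, whatever lies beside them, were present in 33.8% of all windows. The C/EBP-ATF response element TTNCATCA (3.45% of all windows) and the heat shock pair GAANNTTC (6.69%) were in neither window. Nor was a full match to the ER stress response element, which is CCAAT and CCACG with 9 bases between them (0.113%). On the minus strand of the Ddit3 window, however, the CCAAT box was followed after 9 bases by GCACG, which differs from CCACG only in its first letter. Only full matches were searched, and the share of all windows with such a near match was not counted. The matches did not overlap each other. A match is a description of the letters, and these windows cover only part of the regulatory sequence.

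Ddit3 was at 4.43, 4.62 and 10.91 FPKM in OGD/R replicates 1 to 3, against 100.29, 189.53 and 198.77 FPKM in control replicates 1 to 3. The groups did not overlap: the lowest control value was 9.19 times the highest OGD/R value. The means were 6.65 ± 3.69 FPKM in OGD/R and 163 ± 54.4 FPKM in control (SD, n = 3 each), so the OGD/R mean was 4.09% of the control mean, or 24.5-fold lower. On the log2(FPKM + 1) scale the difference was -4.46 ± 0.39 (SE), the most negative among the 852 genes with a mean of at least 1 FPKM, before Bglap2 with -4.21. That place depends on the scale and the libraries: Ddit3 ranked 5 with 0.1 FPKM added, at -4.66, and came after Bglap2 without control replicate 1, at -4.77 against -4.90. By the ratio of means, with nothing added to the values, Bglap2 at 48.4-fold and Avil at 161-fold lower in OGD/R exceeded Ddit3 among the genes named here. With 0.01 FPKM added, Ddit3 ranked 11 of 852, and Gm22770 at -8.77 was the most negative. Without OGD/R replicate 3 and control replicate 1 the Ddit3 means were 4.53 and 194 FPKM, or 42.9-fold lower in OGD/R.

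Ppp1r15a was at 5.51, 5.63 and 7.90 FPKM in OGD/R replicates 1 to 3, against 35.31, 54.88 and 50.76 FPKM in control replicates 1 to 3. These groups did not overlap either, and the lowest control value was 4.47 times the highest OGD/R value. The means were 6.35 ± 1.35 FPKM in OGD/R and 47.0 ± 10.3 FPKM in control (SD, n = 3 each), so the OGD/R mean was 13.5% of the control mean, or 7.40-fold lower. The difference of -2.70 ± 0.21 (SE) on the log2(FPKM + 1) scale ranked 10 from the most negative of the same 852 genes, between Hspa5 at -2.86 and Syvn1 at -2.61, and ranked 9 to 28 under the other settings tried. Without OGD/R replicate 3 and control replicate 1 the means were 5.57 and 52.8 FPKM, or 9.48-fold lower in OGD/R.

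**Figure D1:**
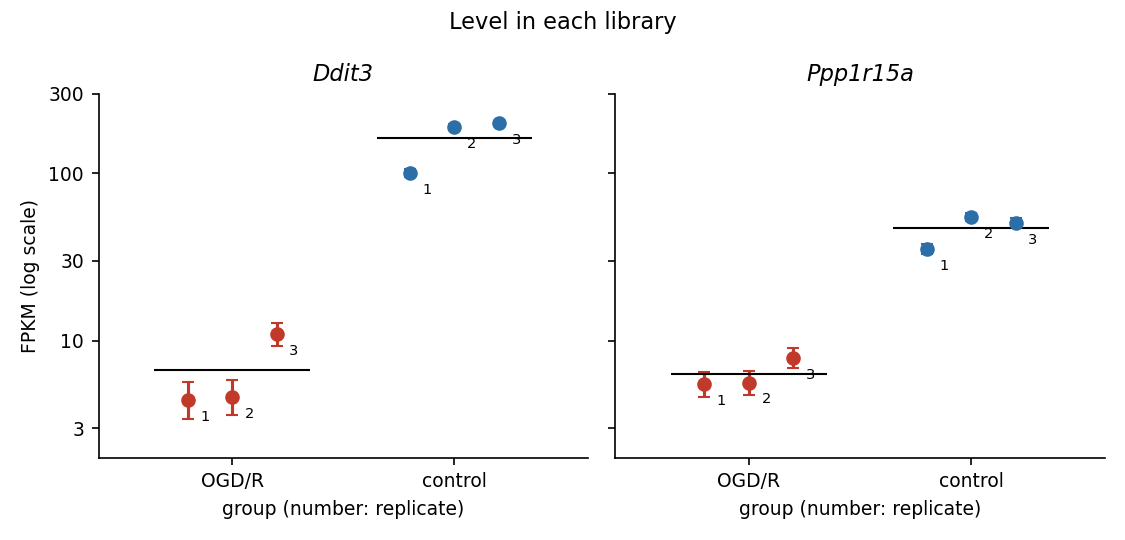
FPKM of Ddit3 and Ppp1r15a on a log scale, by library, in OGD/R (left, red) and control (right, blue); numbers are replicates, bars are 95% Poisson intervals of the counted units and black lines are group means. In both genes the 3 OGD/R libraries lie below the 3 control libraries, replicate 3 is the highest in OGD/R and replicate 1 the lowest in control.

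Both messages were still counted in OGD/R. Ddit3 rested on 61, 67 and 162 counted units in OGD/R replicates 1 to 3, and on 1316, 2678 and 2597 in control replicates 1 to 3. Ppp1r15a rested on 130, 140 and 201 units in OGD/R replicates 1 to 3, and on 795, 1329 and 1137 in control replicates 1 to 3. By level among the 1228 genes, Ddit3 ranked 420, 405 and 233 in the OGD/R libraries and 26, 14 and 13 in the control libraries. Ppp1r15a ranked 365, 362 and 308 in OGD/R and 72, 60 and 60 in control.

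OGD/R replicate 3 and control replicate 1 differed from the other libraries of their groups by more than counting error in both genes. The exact 95% Poisson interval of Ddit3 in OGD/R replicate 3 was 9.29 to 12.7 FPKM, above those of replicates 1 and 2, at 3.39 to 5.69 and 3.58 to 5.87. In control replicate 1 it was 94.9 to 106 FPKM, below those of replicates 2 and 3, at 182 to 197 and 191 to 207, which overlapped. Ppp1r15a had the same order, with 6.85 to 9.07 FPKM in OGD/R replicate 3, above the 4.60 to 6.54 and 4.74 to 6.64 of replicates 1 and 2. Its control replicate 1 lay at 32.9 to 37.9 FPKM, below the 52.0 to 57.9 of replicate 2 and the 47.9 to 53.8 of replicate 3. These intervals cover counting error only.

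In 288 of the 852 tested genes, or 33.8%, OGD/R replicate 3 was likewise the highest of its group and control replicate 1 the lowest. Among the other genes of the stress lists described next it was 17 of 38, or 44.7%. Ddit3 deviated further than most: OGD/R replicate 3 lay 1.11 above the mean of replicates 1 and 2 on the log2(FPKM + 1) scale, higher than 98.0% of tested genes, where the median gene had 0.06. Control replicate 1 lay 0.95 below the mean of replicates 2 and 3, a value of -0.95 with 5.52% of tested genes below it, where the median gene had -0.11. For Ppp1r15a these deviations were 0.44 and -0.57. Across the 852 genes the OGD/R replicate 3 deviation had a Spearman correlation of -0.25 with merged exon length, and the control replicate 1 deviation had 0.21; genes are not independent replicates. Ddit3, with 1713 nt of merged exons, is shorter than the median tested gene with 3152 nt, and Ppp1r15a has 2937 nt. The part of length or RNA quality in these deviations was not tested.

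**Figure D2:**
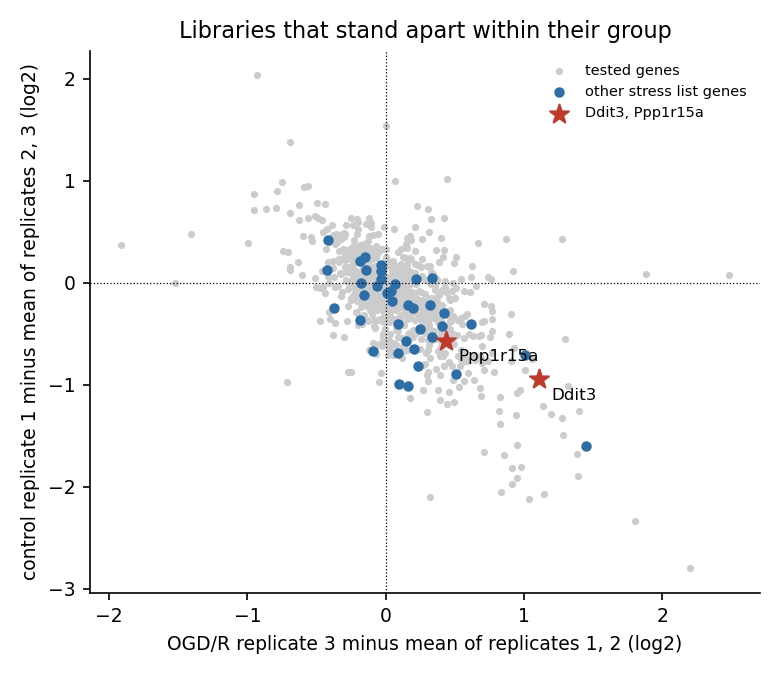
Deviation of OGD/R replicate 3 from the mean of OGD/R replicates 1 and 2 (horizontal) and of control replicate 1 from the mean of control replicates 2 and 3 (vertical), both in log2(FPKM + 1), for 852 tested genes (grey), 38 other stress list genes (blue) and Ddit3 and Ppp1r15a (stars). Both stars lie right of 0 and below 0, Ddit3 at 1.11 and -0.95 and Ppp1r15a at 0.44 and -0.57.

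The balance between the genes differed between the groups as well. Ddit3 FPKM divided by Ppp1r15a FPKM was 0.804, 0.821 and 1.38 in OGD/R replicates 1 to 3, against 2.84, 3.45 and 3.92 in control replicates 1 to 3. CHOP message was thus the lower of the 2 in 2 OGD/R libraries and the higher in the other 4 libraries. As log2 of Ppp1r15a over Ddit3, each with 1 FPKM added, the means were 0.03 ± 0.39 in OGD/R and -1.73 ± 0.24 in control (SD, n = 3 each), a difference of 1.76, or 2.11 without OGD/R replicate 3 and control replicate 1. Between the OGD/R means of Ddit3 and Ppp1r15a the gap was smaller than the SD of either gene.

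The order of the levels within OGD/R depends on the length used for Ddit3. With the merged exon length of 1713 nt, its values in OGD/R replicates 1 to 3 lay 0.072, 0.025 and 0.127 units from a whole number of counted units. With the main transcript of 890 nt they lay 0.344, 0.203 and 0.102 units away, so replicate 3 was nearer to whole with the main transcript, and its 0.127 exceeds the 0.074 units that rounding allows. Rounding allows 0.069, 0.072 and 0.074 units with merged exons, but only 0.036, 0.038 and 0.039 with the main transcript, which all 3 of its distances exceed. Neither length brought all 3 values within rounding, so the Ddit3 values alone do not settle the length. Over the table, library sizes set with merged exon lengths made 97.4% to 100% of the FPKM values worth under 15 counted units whole. For Ppp1r15a all 3 OGD/R values were nearer to whole with merged exons, within 0.069 units, than with the main transcript, at 0.156 units or more. The merged length of Ddit3 contains an exon of a 2-exon transcript of 969 nt without a coding sequence, and it is 1.92 times the main transcript; for Ppp1r15a the factor is 1.26. If all fragments came from the main transcripts, Ddit3 over Ppp1r15a would be 1.23, 1.25 and 2.11 in OGD/R replicates 1 to 3 and 4.34, 5.28 and 5.99 in control replicates 1 to 3, above 1 in every library.

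The other genes of the pathway were taken from 6 lists by role. All 852 genes with a mean of at least 1 FPKM were tested on log2(FPKM + 1) with limma, with Benjamini-Hochberg adjustment over all of them; of these, 432 passed an adjusted p of 0.05 lower in OGD/R (50.7%) and 397 higher (46.6%). The table holds genes that differ between these same samples, so neither being past the threshold nor a small adjusted p is informative here. The lists were chosen with earlier results of these data known, so the directions of their genes are a description too. Of 147 listed genes other than Ddit3 and Ppp1r15a, 39 were in the table and 38 were tested, of which 34 fell in OGD/R and 4 rose. Of the 34, 20 belonged to the list of chaperones and degradation factors of the endoplasmic reticulum. The median log2 fold change of the 38 was -1.43, beside -0.68 for all tested genes. Without OGD/R replicate 3 and control replicate 1 the counts were again 34 and 4, with 442 lower and 385 higher among all tested genes. The listed genes outside the table, among them Atf4, Eif2ak3 and Ppp1r15b, are not analysed here.

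**Figure D3:**
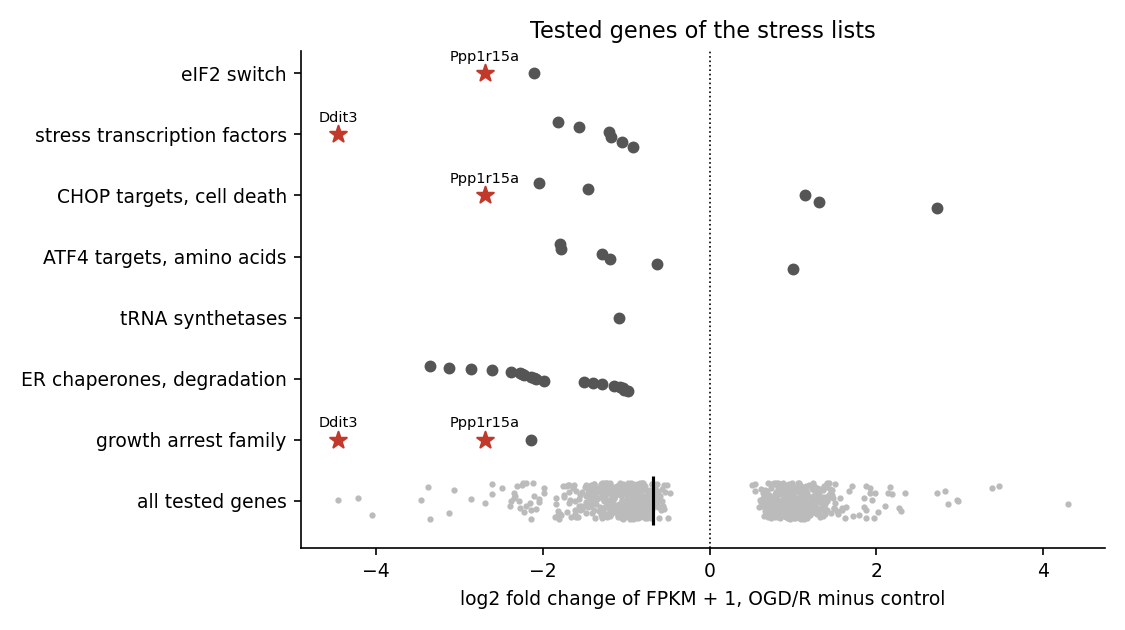
Log2 fold change of FPKM + 1, OGD/R minus control, for tested genes of each stress list (points), for Ddit3 and Ppp1r15a (stars) and for all 852 tested genes (grey, line at the median of -0.68). All 20 points of the endoplasmic reticulum list and all 6 of the transcription factor list lie left of 0, and the CHOP target list has 3 points right of it.

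Of 19 listed genes that set or reverse eIF2 phosphorylation, other than Ppp1r15a, Dnajc3 was the one tested. It encodes a chaperone of the endoplasmic reticulum, known as p58IPK, that restrains eIF2 kinases. Dnajc3 was at 17.37, 18.38 and 15.71 FPKM in OGD/R, against 76.45, 73.25 and 80.56 FPKM in control. It fell with a log2 fold change of -2.10 ± 0.10 (limma, adjusted p = 4.4e-05). Its OGD/R replicate 3 was the lowest of its group, unlike that of Ddit3.

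Of 29 listed stress transcription factors and bZIP partners of CHOP, 6 were tested and all 6 fell. Atf3, a repressor induced by ATF4 that binds AP-1 and CRE sites, was at 18.90, 19.24 and 25.56 FPKM in OGD/R, against 62.99, 84.91 and 84.30 FPKM in control. Its log2 fold change was -1.82 ± 0.17 (limma, adjusted p = 0.00016), and OGD/R replicate 3 and control replicate 1 held the extreme values, as in Ddit3. Nupr1, a small chromatin protein of the stress response, was at 2.03, 2.82 and 8.31 FPKM in OGD/R, against 5.71, 18.67 and 20.18 FPKM in control, and its groups overlapped. Its log2 fold change was -1.57 ± 0.58 (adjusted p = 0.034), and the call was lost, at adjusted p = 0.096 to 0.11, without OGD/R replicate 1 or 2 or control replicate 2 or 3. Atf5, a relative of ATF4, and Jund, an AP-1 subunit, fell with -1.21 ± 0.13 and -1.18 ± 0.12. The remaining 2, named after their values were seen, were Xbp1, the transcription factor made active by IRE1, with -1.05, and Creb3, a membrane-bound bZIP factor, with -0.91.

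Of 21 listed CHOP targets and cell death genes other than Ppp1r15a, 5 were tested, 2 fell and 3 rose, with a median log2 fold change of 1.15. Trib3, a pseudokinase induced by CHOP, was at 25.84, 30.29 and 31.45 FPKM in OGD/R, against 111.79, 139.48 and 121.30 FPKM in control, with -2.05 ± 0.13 (limma, adjusted p = 7.3e-05). Bbc3, which encodes the cell death protein PUMA, averaged 4.81 ± 0.639 FPKM in OGD/R and 15.1 ± 2.80 FPKM in control (SD, n = 3 each) and fell with -1.46. Bcl2l11, which encodes the cell death protein BIM and was named after its values were seen, was at 11.01, 10.30 and 11.18 FPKM in OGD/R, against 4.29, 4.55 and 4.15 FPKM in control, and rose with 1.15 ± 0.09 (adjusted p = 0.00011). Txnip, an inhibitor of thioredoxin that also responds to glucose, rose with 2.73 ± 0.19, and Trib1, a relative of Trib3, rose with 1.32 ± 0.11 at a low level, 3.18 ± 0.155 FPKM in OGD/R and 0.68 ± 0.108 FPKM in control. The sixth gene, Car6, whose induction by CHOP is known from mouse cells, was below the minimum and listed at 0, 0 and 0.25 FPKM in OGD/R, against 0.50, 0.93 and 1.01 FPKM in control. The genes of this list therefore did not share 1 direction.

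Of 30 listed ATF4 targets of amino acid supply, 6 were tested, 5 fell and 1 rose. Gdf15, a secreted stress cytokine, averaged 7.77 ± 2.53 FPKM in OGD/R and 28.9 ± 4.56 FPKM in control (SD, n = 3 each), with a log2 fold change of -1.80 ± 0.24 (limma, adjusted p = 0.00048). Aldh1l2, a mitochondrial enzyme of folate metabolism, fell with -1.78, the glycine transporter Slc6a9 with -1.29 and the translation repressor Eif4ebp1 with -1.20 ± 0.34. The fifth, named after its values were seen, was Pycr1, an enzyme of proline synthesis, with -0.63. Slc7a11, the cystine carrier, rose with 1.00 ± 0.12 (adjusted p = 0.00031, limma), at 34.99, 31.17 and 28.93 FPKM in OGD/R, against 16.98, 14.30 and 14.71 FPKM in control. Of 19 aminoacyl tRNA synthetases only Wars, for tryptophan, was tested, and it fell with -1.08.

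All 20 tested genes among 30 chaperones and degradation factors of the endoplasmic reticulum, Dnajc3 included, fell, with log2 fold changes from -0.98 (Derl2) to -3.35 (Herpud1) and a median of -2.09. Creld2, with -3.12, had the replicate pattern of Ddit3 in control, at 98.27, 202.69 and 194.74 FPKM, but not in OGD/R, at 19.60, 13.92 and 18.59 FPKM. Of the 13 listed growth arrest and DNA damage genes other than Ddit3 and Ppp1r15a, Gadd45a, a stress sensor that binds cell cycle and MAP kinase proteins, was the one tested. Gadd45a was at 2.75, 2.28 and 5.89 FPKM in OGD/R, against 10.94, 24.82 and 22.67 FPKM in control, and fell with -2.14 ± 0.39 (limma, adjusted p = 0.0019). Its OGD/R replicate 3 was the highest and its control replicate 1 the lowest, as in Ddit3. None of 18 listed heat shock genes was in the table.

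The genes most like each member were found over the 6 libraries by the root mean square distance between log2(FPKM + 1) profiles centred on their own mean. For Ddit3 the nearest named genes were Bglap2 at 0.41, Gpr84 at 0.70, Sh2d6 at 0.71, Herpud1 at 0.72 and Creld2 at 0.76, with Ppp1r15a next at 0.92. Bglap2, a bone Gla protein gene with near-identical neighbours and therefore uncertain, was at 0.53, 0.25 and 1.47 FPKM in OGD/R, against 11.08, 48.92 and 48.99 FPKM in control. Its log2 fold change of -4.21 was -4.90 without control replicate 1. Gpr84, which encodes a fatty acid receptor of immune cells, was at 2.89, 3.63 and 4.08 FPKM in OGD/R, against 47.34, 45.56 and 44.92 FPKM in control, without the low control replicate 1 of Ddit3.

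For Ppp1r15a the nearest genes lay closer on this scale, with Syvn1 at 0.14, Avil at 0.16, Serpinb1a at 0.23, Akr1b7 at 0.24 and Nox3 at 0.27. Ddit3 came at rank 216. In OGD/R, Avil, Akr1b7 and Nox3 averaged 0.033, 0.917 and 0.99 FPKM, so the added 1 FPKM weighs on their profiles. By the ratio of means they were 161-fold, 9.26-fold and 8.24-fold lower in OGD/R, against 7.40-fold for Ppp1r15a. Syvn1, which encodes a ubiquitin ligase that disposes of misfolded proteins, was at 5.85, 6.24 and 7.79 FPKM in OGD/R, against 40.87, 47.32 and 48.08 FPKM in control. It shared with Ppp1r15a a similar level in both groups and the same extreme libraries. Serpinb1a, an inhibitor of neutrophil proteases, was at 30.66, 27.69 and 45.75 FPKM in OGD/R, against 132.94, 186.26 and 196.63 FPKM in control.

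**Figure D4:**
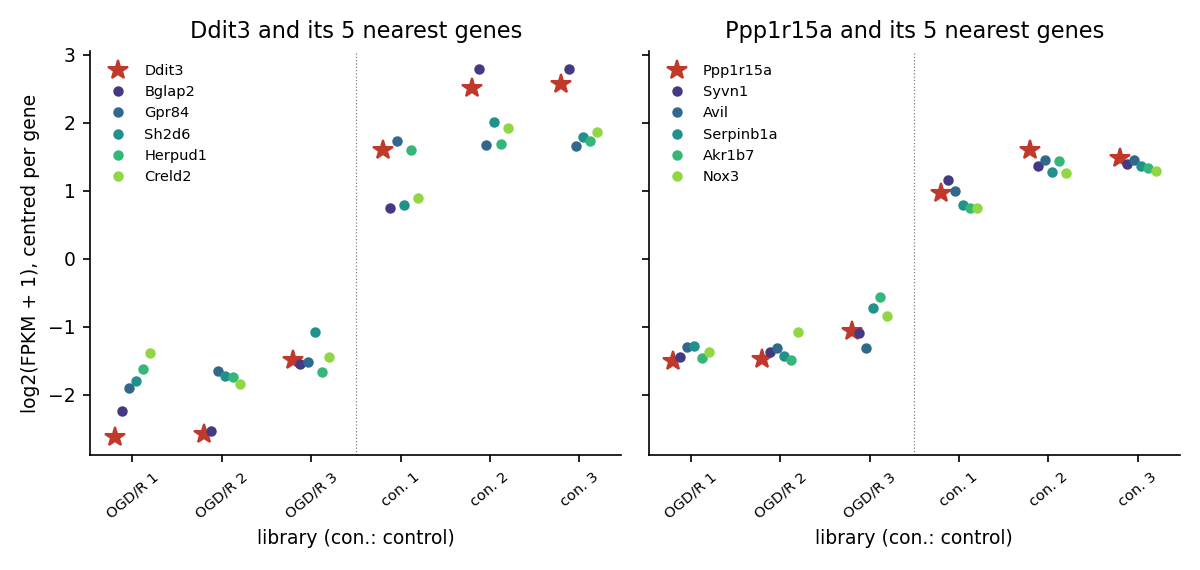
Log2(FPKM + 1) centred on each gene's mean over the 6 libraries (3 OGD/R left, 3 control right of the dotted line) for Ddit3 and Ppp1r15a (stars) and the 5 genes nearest to each (points). Ddit3 and Bglap2 span the widest range, and the genes near Ppp1r15a lie within 0.27 of it by root mean square distance.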

How the data were processed

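RNA of 3 OGD/R and 3 control samples of Bv2 cells was sequenced as paired reads of 150 nt, per the labels' protocols. The values are FPKM made and deposited by the authors, 1 column per sample, on GRCm38 per the submitters' processing notes; the sources used here name no aligner, counter or annotation, and no rule for picking the genes. Gene IDs were matched to GENCODE M21 (1227 of 1228), and 2 symbols turned into dates were restored. Library sizes were set so that, with merged exon lengths, FPKM values worth under 15 counted units came out whole, within rounding error plus 0.03 units, for 97.4% to 100% of these values, against 25.9% to 32.5% at other sizes. Genes with a mean of at least 1 FPKM were tested on log2(FPKM + 1), a scale that understates the change of low genes, with limma 3.58.1 in R 4.3.3 (group as the only factor, eBayes with trend, two-sided, Benjamini-Hochberg). The code was tested on simulated data. Other steps used Python 3.11.15, pandas 2.3.3, numpy 2.4.6, scipy 1.17.1 and matplotlib 3.10.9. Promoter sequences are from RefSeq (GRCm38.p6), which held both genes.

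The members and the 14 gene lists were chosen with earlier results of these data known. Named genes were up to 4 past the threshold per list with the largest fold change, stress genes against their list's main direction, markers, and the 5 nearest to each member; symbols starting with Gm or ending in Rik, and clone names, were left out of the nearest. Alternatives covered pseudocount, filter, scaling, a replicate block, other eBayes settings, leaving out 1 library at a time, and voom on the recovered units. Leaving out both libraries that stand apart and the main transcript length were added after seeing the data.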

Additional observations from a re-analysis of the deposited data

How the results depend on the processing

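The log2 ratio of group means was -4.61 for Ddit3 and -2.89 for Ppp1r15a. Leaving out 1 replicate gave -5.17 to -4.39 and -3.08 to -2.76, and leaving out both libraries that stand apart gave -5.42 and -3.25. Setting the median of the libraries equal gave -2.44 for Ppp1r15a and -4.19 for Ddit3; it shifted the median of all tested genes by 0.28, to -0.40, gave 374 genes lower in OGD/R and 398 higher, against 432 and 397, and put the stress lists at 34 lower and 4 higher with a median of -1.01. Ddit3 had the most negative log2 fold change in 12 of 17 other settings and ranked 11 at the lowest. The filters, the other eBayes settings and the replicate block left its fold change at -4.46 by construction, so they add little to this count. With 0.1 FPKM added, 0.01 FPKM added and voom, Ddit3 ranked 5, 11 and 4. Log2 of Ppp1r15a over Ddit3 differed by 1.76, by 1.64 to 1.98 without any 1 replicate, and by 2.11 without both libraries that stand apart. With a filter of at least 5 FPKM, which left 423 genes, 221 were lower in OGD/R and 188 higher. The stress lists gave 32 to 35 lower and 3 to 4 higher genes over all settings. Of 48 listed or named genes, 45 kept their call in every setting that tested them; 41 of the 48 were tested in all 17 settings, and the others fell below a filter in some. The exceptions were Nupr1 and, under quantile normalization only, Calr and Hsp90b1, with log2 fold changes of 0 and -0.03; the cause was not tested. Whether the replicate numbers pair the libraries was not settled. Across tested genes, deviations from the group means correlated at 0.43, -0.35 and 0.38 for numbers 1, 2 and 3, so not every library was closest to its own number. The library that stands apart in each group weighs on these values, with -0.63 between OGD/R replicate 3 and control replicate 1, so the correlations cannot decide pairing. A replicate block gave 440 lower and 395 higher genes, with 34 and 4 of the stress lists, and changed no other call. Counting error limits Ddit3 most in OGD/R replicates 1 and 2, at 61 and 67 units.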
